A study of Mus musculus with 4 samples.

Results

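The genes encoded by mouse mitochondrial DNA (mtDNA) were examined in lungs carrying 4T1 metastases after saline or ADC/cmLumiOpto. Members were all rows of the count table that list MT as their chromosome. There were 37 of 56748 genes: 13 mRNA genes, 2 rRNA genes and 22 tRNA genes. All 37 lay at the positions that GENCODE vM21 gives for the mitochondrial chromosome. The genes were chosen as a group with the difference between saline and ADC/cmLumiOpto in their counts already known, so their values in these 2 groups are given as a description and carry no test.

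The saline group had 2 samples and the ADC/cmLumiOpto group had 2 samples. All mice were female BALB/cJ of 7 weeks and had received 2000000 4T1-FLuc cells, a mouse triple-negative breast cancer (TNBC) line that expresses luciferase, into the tail vein. Controls received saline according to the study's methods and PBS according to the labels. Treated mice received an antibody-drug conjugate (ADC), an anti-CD276 antibody carrying the microtubule inhibitor DM1, together with cmLumiOpto. The dose of ADC is 16 mg/kg in the labels and 8 mg/kg in the methods. cmLumiOpto is an AAV vector carried by exosomes coated with the same antibody. It places a light-gated channel in the inner mitochondrial membrane, drives it from the cancer-selective cfos promoter, and is switched on by light from the luciferase substrate ViviRen, given at 2 mg/kg. The labels add an abbreviation, Olap, to the name of the vector, which is not explained there. The labels describe tumour cells collected from lung, whereas the methods describe dissociated lung tissue, and material was taken after 3 weeks. The study's methods give a larger number of samples per group than the 2 analysed here.

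mtDNA is a small circle that cells hold in many copies. Its genes encode core subunits of respiratory complexes I, III, IV and V, and the rRNAs and tRNAs needed to translate them inside the organelle, while every other mitochondrial protein comes from nuclear genes. Both strands are transcribed into long precursors, tRNAs are cut out from between the other genes, and the mRNAs then receive short poly(A) tails. Mitochondrial tRNAs carry no such tail, and the rRNAs carry a very short tail. The libraries were made from RNA bound to poly-T beads, so counts of the tRNA and rRNA genes describe the part that passed this selection.

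Total counts were between 15263375 and 19675436 per sample. CPM values are counts relative to the library size after scaling by edgeR's TMM factors, which lay between 0.973 and 1.04. A floor of 3 counts, which allows for counting error alone, equals 0.146 to 0.202 CPM. The label of the samples as tumour in lung was checked against marker genes. The keratin Krt8, a marker of 4T1 cells that lung epithelium also expresses, held 18245, 22890, 19963 and 22916 counts in the samples saline 1, saline 2, ADC/cmLumiOpto 1 and ADC/cmLumiOpto 2. The surfactant gene Sftpc, which marks alveolar type 2 cells, held 16263, 2585, 76235 and 70262 counts. Both markers were present in every sample, and Sftpc differed far more between samples than Krt8. In bulk samples, fewer cells of a type and less RNA per cell cannot be told apart.

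Some of these genes have a second location in the nuclear genome, and these sequences are shown first because they bear on what a count can mean. mt-Nd3 (ENSMUSG00000064360), a membrane subunit of complex I, and its unprocessed nuclear pseudogene Gm28438 on chromosome 1 matched over 345 bases apart from the base in capitals, the substitution T3C counted from the 5′ end of mt-Nd3. The first part of this stretch is shown, chrMT:9459-9521 on the plus strand of GRCm38.
mt-Nd3: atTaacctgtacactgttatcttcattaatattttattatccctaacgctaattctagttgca
Gm28438: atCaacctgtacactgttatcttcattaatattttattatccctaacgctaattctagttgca

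mt-Nd4l (ENSMUSG00000065947), another membrane subunit of complex I, was identical to Gm10222 over 294 bases, chrMT:9877-10170 on the plus strand, and is shown as the case in which no base separates the mitochondrial gene from the nuclear copy.
mt-Nd4l: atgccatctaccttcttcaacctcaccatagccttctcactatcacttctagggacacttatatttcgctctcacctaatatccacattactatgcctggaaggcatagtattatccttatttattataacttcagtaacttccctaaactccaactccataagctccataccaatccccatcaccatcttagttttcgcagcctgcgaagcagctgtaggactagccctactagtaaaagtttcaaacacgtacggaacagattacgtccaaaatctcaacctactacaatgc

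For mt-Co1 (ENSMUSG00000064351), the catalytic core of complex IV, only the last 31.3% of the gene had such a copy, Gm29216. The single difference in 483 bases was A1066T, shown in capitals at the start of that stretch, chrMT:6390-6453 on the plus strand.
mt-Co1: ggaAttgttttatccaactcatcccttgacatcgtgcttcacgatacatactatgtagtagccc
Gm29216: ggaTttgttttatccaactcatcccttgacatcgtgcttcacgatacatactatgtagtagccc

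mt-Atp8 (ENSMUSG00000064356), a small subunit of complex V, is shown for a different reason. It shares its last 43 bases, in capitals, with the start of mt-Atp6. It spans chrMT:7766-7969 on the plus strand.
mt-Atp8: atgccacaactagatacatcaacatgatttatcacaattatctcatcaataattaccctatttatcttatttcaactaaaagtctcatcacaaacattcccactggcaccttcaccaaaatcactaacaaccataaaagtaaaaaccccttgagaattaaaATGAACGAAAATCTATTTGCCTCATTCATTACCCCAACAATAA

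The tRNA genes are short, and the examples given are the 3 with the most counts and mt-Tl1, the only member in the fit that was lower in both treated samples. mt-Tp (proline, chrMT:15356-15422), mt-Tc (cysteine, chrMT:5192-5257) and mt-Tn (asparagine, chrMT:5089-5159) lie on the minus strand, and mt-Tl1 (leucine, chrMT:2676-2750) lies on the plus strand. All sequences are those of the GENCODE vM21 transcripts of GRCm38.
mt-Tp: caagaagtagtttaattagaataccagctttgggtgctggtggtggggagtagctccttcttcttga
mt-Tc: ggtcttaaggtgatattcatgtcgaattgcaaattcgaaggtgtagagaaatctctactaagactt
mt-Tn: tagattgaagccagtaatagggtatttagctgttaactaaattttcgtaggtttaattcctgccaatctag
mt-Tl1: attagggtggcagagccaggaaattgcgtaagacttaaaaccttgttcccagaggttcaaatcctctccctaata

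Mitochondrially encoded genes took a larger share of the counts after ADC/cmLumiOpto. The share of all counts was 1.13% (Wilson 95% interval 1.13 to 1.14) in saline 1 and 1.17% (1.17 to 1.18) in saline 2. It was 2.09% (2.08 to 2.1) in ADC/cmLumiOpto 1 and 1.84% (1.84 to 1.85) in ADC/cmLumiOpto 2. The intervals cover counting error only. Both saline samples were close to each other and the groups did not overlap, with means of 1.15% ± 0.026 (SD, n = 2) and 1.97% ± 0.18 (SD, n = 2), a difference of 0.81 percentage points and a ratio of 1.70. mRNA genes held 96.4%, 97.6%, 95.8% and 93.5% of the mitochondrial counts in the same order of samples, rRNA genes 3.39%, 2.19%, 4.04% and 6.28%, and tRNA genes 0.227%, 0.247%, 0.190% and 0.187%. Most mitochondrial counts thus came from mRNA genes in each sample.

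**Figure D1:**
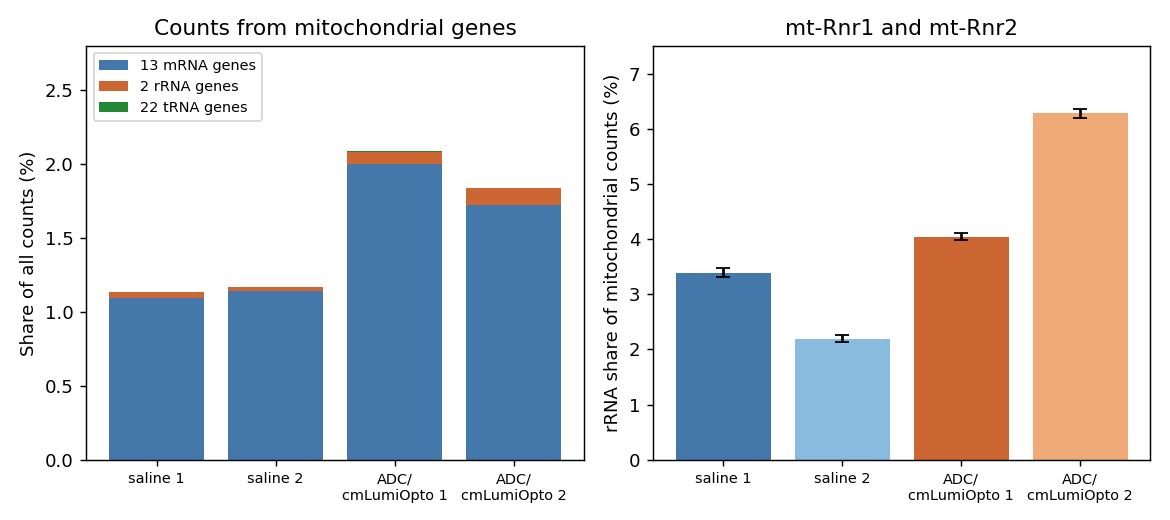
Left, share of all counts (%, y axis) from mitochondrial mRNA, rRNA and tRNA genes in each sample, stacked. Right, mt-Rnr1 and mt-Rnr2 together as a share of mitochondrial counts (%), with Wilson 95% intervals as error bars. The share of all counts was 1.13% and 1.17% with saline and 2.09% and 1.84% with ADC/cmLumiOpto, and the rRNA share was highest in ADC/cmLumiOpto 2 at 6.28%.

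Of the 37 members, 22 had enough counts to enter the fit over all genes: 12 mRNA genes, both rRNA genes and 8 tRNA genes. Of the 22, 20 had a log2 fold change (ADC/cmLumiOpto over saline) above 0, where 52% of the 15320 genes in the fit did. Both treated samples lay above both saline samples in CPM for 17 members, where 28.1% of all genes in the fit did, and below for 1 member, where 28.8% did. The other 4 overlapped. These counts describe members that were chosen on this contrast, and members with low counts entered the fit partly through the group in which they were higher. The median log2 fold change of the 22 members was 0.73, against 0.028 for all genes in the fit. With a smooth trend on gene length removed from each sample, the members' median was 0.41. In the fit across all genes by edgeR's quasi-likelihood test, 0 of 15320 genes (0%) had an adjusted p under 0.05, with 0.116 as the smallest adjusted p, while 3553 genes (23.2%) had an unadjusted p under 0.05. DESeq2 called 579 genes higher (3.78%) and 774 lower (5.05%), and the edgeR exact test called 606 higher (3.96%) and 564 lower (3.68%).

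**Figure D2:**
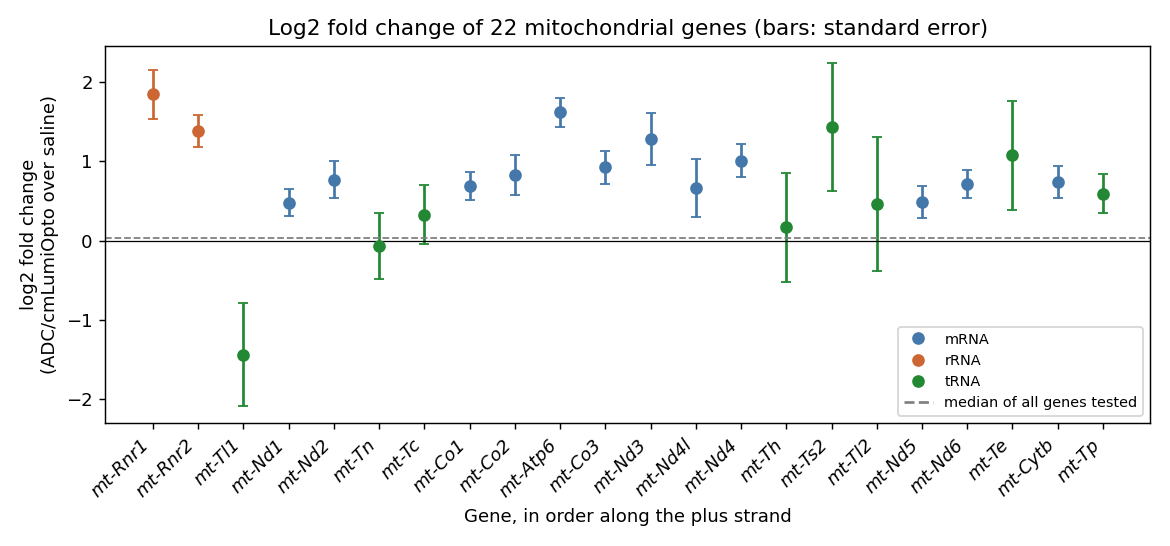
Log2 fold change (ADC/cmLumiOpto over saline, y axis) of the 22 mitochondrial genes in the fit, in order along the plus strand, with standard errors as bars and colors for mRNA, rRNA and tRNA genes. The dashed line is the median of all genes in the fit, 0.028. The 12 mRNA genes and both rRNA genes lie above it, and mt-Tl1 is the lowest at -1.44.

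Both rRNA genes were further apart between the groups than most mRNA genes. mt-Rnr1 (ENSMUSG00000064337, chrMT:70-1024) encodes the small-subunit rRNA of the mitochondrial ribosome and held 2687, 1433, 6906 and 11536 counts in the samples saline 1, saline 2, ADC/cmLumiOpto 1 and ADC/cmLumiOpto 2. mt-Rnr2 (ENSMUSG00000064339, chrMT:1094-2675), the large-subunit rRNA, held 3499, 2489, 8184 and 11214 counts. The groups did not overlap for either gene, with ADC/cmLumiOpto 2 highest and saline 2 lowest for both. Mean levels were 132 ± 50.5 CPM with saline and 477 ± 121 CPM with ADC/cmLumiOpto for mt-Rnr1 (SD, n = 2), and the log2 fold change was 1.85 ± 0.31 (standard error). For mt-Rnr2 they were 193 ± 36.0 CPM and 505 ± 58.7 CPM, and the log2 fold change was 1.39 ± 0.20.

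The rRNA part of the mitochondrial counts was 2.79% ± 0.85 with saline and 5.16% ± 1.58 with ADC/cmLumiOpto (SD, n = 2), a difference of 2.37 percentage points. Within each group the samples stood apart. Without ADC/cmLumiOpto 2 the difference was 1.25 points. mt-Rnr1 and mt-Rnr2 come from the same precursor, and the ratio of their counts was 0.768, 0.576, 0.844 and 1.03 in the 4 samples. mt-Rnr1 therefore held fewer counts than mt-Rnr2 in all samples but ADC/cmLumiOpto 2. Other RNAs without a poly(A) tail also moved in part with the groups. The summed level of 10 such nuclear RNAs was 1.38, 3.30, 12.5 and 3.8 CPM, with 8 of the 10 listed at 0 in each sample and Rn7sk, the RNA of a particle that sequesters a transcription elongation factor, at 21, 44, 212 and 73 counts. Replication-dependent histone genes, whose mRNAs end without a tail, were in sum at 1104, 1658, 876 and 965 CPM over 69 genes. That sum was lower in both treated samples, whereas 10 of the 12 histone genes in the fit had a log2 fold change above 0, with a median of 0.50. DESeq2 and the edgeR exact test each called 1 of the 12 higher and 0 lower, and edgeR's quasi-likelihood test called 0, with 4 at an unadjusted p under 0.05. The part of poly(A) selection in the rRNA values was not tested.

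The 7 complex I genes were all higher in both treated samples, by amounts that varied from gene to gene. mt-Nd1 (ENSMUSG00000064341, chrMT:2751-3707), which forms part of the quinone-binding arm of the complex, held 24434, 25557, 41364 and 44900 counts. mt-Nd2 (ENSMUSG00000064345, chrMT:3914-4951), a proton-pumping subunit, held 12186, 12571, 29166 and 22271 counts. Both genes were higher in both treated samples, and in CPM ADC/cmLumiOpto 1 was above ADC/cmLumiOpto 2 for both. The log2 fold change was 0.48 ± 0.17 (standard error) for mt-Nd1, the smallest of the mRNA genes in the fit, and 0.77 ± 0.23 for mt-Nd2, which was 0.43 without ADC/cmLumiOpto 1.

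mt-Nd4 (ENSMUSG00000064363, chrMT:10167-11544) and mt-Nd5 (ENSMUSG00000064367, chrMT:11742-13565) encode the other large proton-pumping subunits. mt-Nd4 held 11917, 11911, 32103 and 26697 counts, and mt-Nd5 held 14972, 17200, 28577 and 27008 counts. mt-Nd5 was the more abundant of both in saline and mt-Nd4 was close to it after ADC/cmLumiOpto. Accordingly, the log2 fold change was 1.01 ± 0.21 for mt-Nd4 and 0.49 ± 0.20 for mt-Nd5.

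mt-Nd3 (chrMT:9459-9806) held 294, 262, 1033 and 605 counts, with a log2 fold change of 1.29 ± 0.33 that was 0.71 without ADC/cmLumiOpto 1. mt-Nd4l (chrMT:9877-10173) held 45, 56, 86 and 114 counts, with a log2 fold change of 0.66 ± 0.37. The groups did not overlap for either gene, but the treated samples of mt-Nd3 lay further apart than those of any other complex I gene relative to their mean. mt-Nd6 (ENSMUSG00000064368, chrMT:13552-14070), the only mRNA gene on the minus strand, held 4150, 4369, 8784 and 8452 counts and had a log2 fold change of 0.72 ± 0.18. The last 14 bases of mt-Nd5 lie opposite mt-Nd6, and the sources used here do not say whether reads were counted by strand, so reads there cannot be assigned to a strand with certainty.

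mt-Cytb (ENSMUSG00000064370, chrMT:14145-15288), the mtDNA-encoded subunit of complex III, held 30466, 31996, 67828 and 59933 counts. Its mean level was 2031 ± 178 CPM with saline and 3383 ± 652 CPM with ADC/cmLumiOpto (SD, n = 2), and its log2 fold change was 0.74 ± 0.20. The groups did not overlap, and the spread between the treated samples exceeded that between the saline samples.

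Complex IV has 3 mtDNA-encoded subunits. mt-Co1 (chrMT:5328-6872), the most abundant member, held 74310, 68086, 141245 and 141242 counts, or 4617 ± 39.8 CPM with saline and 7446 ± 790 CPM with ADC/cmLumiOpto, and ranked as the fourth most abundant gene of the whole table. mt-Co2 (ENSMUSG00000064354, chrMT:7013-7696), which takes electrons from cytochrome c, held 1346, 830, 2484 and 2220 counts. mt-Co3 (ENSMUSG00000064358, chrMT:8607-9390), a structural core subunit, held 1067, 870, 2443 and 2040 counts. All 3 genes were higher in both treated samples, with log2 fold changes of 0.69 ± 0.18, 0.83 ± 0.25 and 0.92 ± 0.21. Per kilobase, mt-Co1 stood at 2989 ± 25.8 CPM with saline, and mt-Co2 and mt-Co3 at 102 ± 29.2 and 79.9 ± 7.27 CPM.

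Of the 2 complex V genes, mt-Atp6 (ENSMUSG00000064357, chrMT:7927-8607), which forms the proton channel of ATP synthase, held 749, 734, 2346 and 3344 counts. Its mean level was 48.1 ± 1.87 CPM with saline and 148 ± 21.3 CPM with ADC/cmLumiOpto (SD, n = 2). Its log2 fold change of 1.62 ± 0.18 was the largest of the mRNA genes, and it was 1.32 when counts of its nuclear copy were added. mt-Atp8 held 1, 0, 4 and 2 counts and did not enter the fit. The floor of 3 counts was passed in 1 sample, so no fold is given. mt-Atp8 was hardly measured in these libraries, for reasons that were not tested. mt-Atp6 overlaps mt-Atp8 by 43 bases and mt-Co3 by 1 base, and mt-Nd4l overlaps mt-Nd4 by 7 bases. How reads over such shared bases were counted is not given in the sources used here.

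Without the trend on gene length, the log2 fold changes of the 12 mRNA genes in the fit were all above 0, from 0.16 for mt-Nd1 to 1.31 for mt-Atp6. Among the genes named so far this took mt-Nd2 to 0.43, mt-Nd4l to 0.33, mt-Nd5 to 0.24, mt-Nd6 to 0.37, mt-Cytb to 0.42, mt-Co1 to 0.41, mt-Co2 to 0.49 and mt-Co3 to 0.59.

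Levels per kilobase spanned several orders of magnitude along a genome that is transcribed as long precursors. In saline, mt-Co1 at 2970 to 3007 CPM per kilobase was above every other mRNA gene in both samples. mt-Cytb (1665 to 1885) and mt-Nd1 (1596 to 1800) overlapped, mt-Nd2 followed at 734 to 816, and mt-Nd5 (513 to 636), mt-Nd4 (541 to 583) and mt-Nd6 (500 to 567) overlapped with each other. Then came mt-Co2 (81.8 to 123), which overlapped mt-Co3 (74.8 to 85.1), followed by mt-Atp6 (68.8 to 72.6), mt-Nd3 (50.8 to 52.8), mt-Nd4l (9.47 to 12.7) and mt-Atp8 (0 to 0.306). The rRNA genes, at 101 to 176 CPM per kilobase for mt-Rnr1 and 106 to 138 for mt-Rnr2, lay between mt-Nd6 and mt-Co3 in these libraries. After ADC/cmLumiOpto, mt-Co1 was still highest (4458 to 5181) and mt-Atp8 lowest (0.478 to 1.11). There mt-Atp6 (195 to 239) was above mt-Co3 (127 to 177), the reverse of their order with saline. Both genes share sequence with nuclear copies. With saline the copy held 49.6% and 49.0% of the counts of the pair for mt-Atp6, and 38.3% and 40.7% for mt-Co3. It also held 23.9% and 36.3% for mt-Co2, 29.3% and 38.8% for mt-Nd3, and 53.6% and 53.7% for mt-Nd4l. The levels of these 5 genes, and their order among each other, are therefore uncertain.

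**Figure D3:**
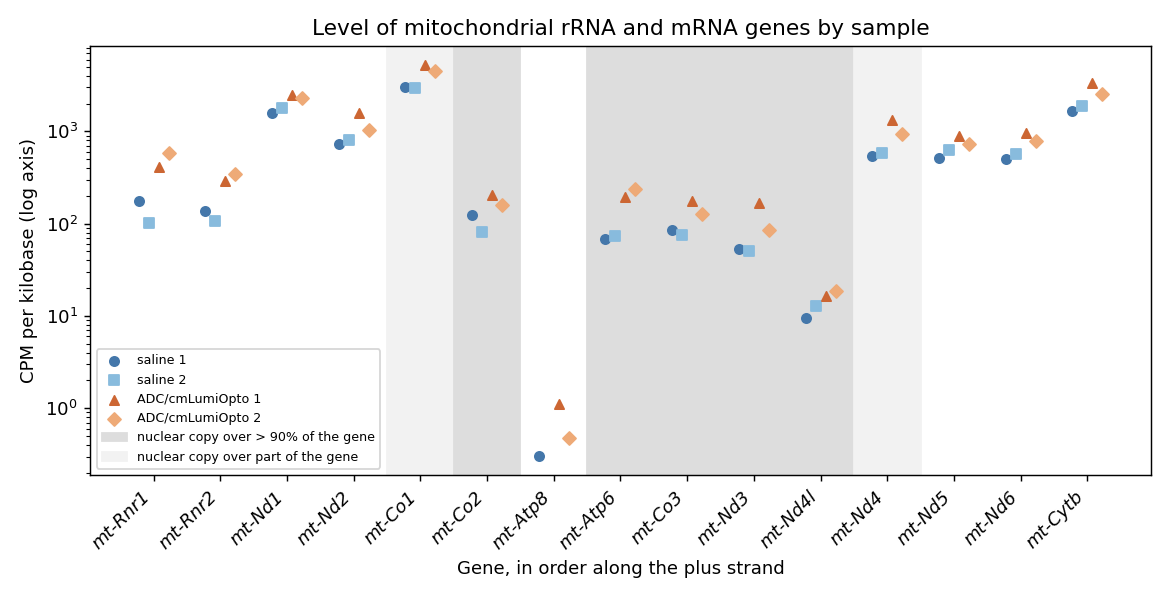
Level of the 2 rRNA and 13 mRNA genes (CPM per kilobase, log axis) in each sample, in order along the plus strand. Dark shading marks genes with a nuclear copy over more than 90% of their length and light shading genes with a copy over part of it. Copies are those found among annotated nuclear transcripts, so an unshaded gene can have a copy that was not searched for. The dark shaded genes sit at 9.47 to 123 CPM per kilobase with saline, and mt-Atp8 in saline 2 had 0 counts and is not drawn.

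The makeup of the mitochondrial counts was compared between the groups as well. As a share of mitochondrial counts, 5 of the 22 members in the fit were higher in both treated samples, 5 were lower in both and 12 overlapped. Such separation was common. In CPM, 28.1% of all genes in the fit were higher in both treated samples and 28.8% were lower in both. The shares are also tied to each other, since a higher share of some members lowers that of others. The higher members were mt-Rnr1, mt-Rnr2, mt-Atp6, mt-Nd3 and mt-Nd4. mt-Nd4 took 6.53%, 6.66%, 8.60% and 7.37% of the mitochondrial counts in the 4 samples. The lower members were mt-Nd1, mt-Nd5, mt-Tl1, mt-Tn and mt-Tc. mt-Nd1 took 13.4%, 14.3%, 11.1% and 12.4%. mt-Co1 overlapped, at 40.7%, 38.1%, 37.8% and 39.0%, and so did mt-Cytb, at 16.7%, 17.9%, 18.2% and 16.5%. The most abundant pair of genes thus kept overlapping shares while the total was higher.

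Genes on the minus strand, mt-Nd6 and 8 tRNA genes, together held 2.48%, 2.62%, 2.52% and 2.48% of mitochondrial counts, which overlapped between the groups. As a share of all counts they went from 0.0294% ± 0.0018 to 0.0492% ± 0.0050, a ratio of 1.67, and the 12 plus-strand mRNA genes had a ratio of 1.66. The ratio was thus nearly equal for genes listed on either strand. Whether reads were counted by strand is not known. Counts of minus-strand genes can therefore hold reads from the plus-strand precursor, and the strands cannot be compared with certainty.

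The tRNA genes had few counts, in sum 414, 441, 709 and 677 per sample, and only part of them could be compared. Of the 22 genes, 6 were at 0 in every sample, 5 had 1 to 9 counts in all samples together and 11 had 10 or more. mt-Tp held 209, 164, 356 and 334 counts, or 12.1 ± 1.42 CPM with saline and 18.2 ± 2.75 CPM with ADC/cmLumiOpto, a log2 fold change of 0.59 ± 0.25 that was 0.19 with the trend on gene length removed. mt-Tc held 99, 96, 180 and 117 counts and mt-Tn held 53, 43, 62 and 50. mt-Tp was higher in both treated samples in CPM, whereas mt-Tc and mt-Tn overlapped.

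mt-Tl1, which lies between mt-Rnr2 and mt-Nd1, held 18, 31, 14 and 8 counts. Both treated samples were below both saline samples, at 1.61 ± 0.68 CPM with saline and 0.592 ± 0.28 CPM with ADC/cmLumiOpto (SD, n = 2). Its log2 fold change was -1.44 with a standard error of 0.65, and -0.92 without saline 2. Both of its flanking genes were higher in both treated samples.

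mt-Te (glutamate) held 5, 14, 27 and 23 counts and mt-Ts2 (serine) held 3, 9, 11 and 31, and both were higher in both treated samples in CPM. Leaving out saline 2 raised the log2 fold change of mt-Te from 1.08 to 2.06 and that of mt-Ts2 from 1.43 to 2.47, and leaving out saline 1 lowered them to 0.47 and 0.80. mt-Tl2 (leucine) at 7, 41, 24 and 62 counts and mt-Th (histidine) at 9, 21, 13 and 30 overlapped. In both of these the sample numbered 2 held more counts than the sample numbered 1 in each group. For mt-Tc, mt-Tn, mt-Tl2 and mt-Th the sign of the log2 fold change turned in at least 1 alternative. mt-Ty (tyrosine) at 5, 3, 13 and 3 counts, mt-Tw (tryptophan) at 2, 9, 4 and 5, and mt-Tr (arginine) at 0, 7, 1 and 8 did not enter the fit and overlapped. At these counts no difference was detectable for the tRNA genes outside the fit.

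Annotated nuclear copies of mtDNA were found for 7 of the 13 mRNA genes. Sequence outside annotated transcripts was not searched, so other members can have copies that are not listed. An alignment of the mitochondrial transcripts against the nuclear transcripts of GENCODE vM21 found 7 unprocessed pseudogenes at 99% identity or more over 200 bases or more. All 7 are listed on the minus strand of chromosome 1 between 24650616 and 24655278 (positions of the count table, whose processing notes name mm39), in the same order as the mitochondrial genes. In mtDNA, mt-Atp8 lies between mt-Co2 and mt-Atp6. Of mt-Atp8, 43 bases matched Gm10925, the copy of mt-Atp6. The stretch between the copies of mt-Co2 and mt-Atp6, from 24653732 to 24653966, was not aligned, so a copy of mt-Atp8 there is not known. The copies of mt-Co2 (Gm28661), mt-Atp6 (Gm10925), mt-Co3 (Gm28437), mt-Nd3 (Gm28438) and mt-Nd4l (Gm10222) cover more than 90% of the gene. That of mt-Nd4 (Gm28439) covers 63.6% and that of mt-Co1 (Gm29216) 31.3%. The 5 genes with a copy over more than 90% of their length had mean levels of 11.1 to 102 CPM per kilobase with saline, below every other mRNA gene except mt-Atp8. The genes for which no such copy was found, or only a partial one, were at 534 CPM per kilobase or more, again except mt-Atp8. Whether mt-Atp8 has a copy outside annotated transcripts is not known, so it cannot be placed in either group.

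The 7 copies together held 2464, 2460, 6161 and 5489 counts, or 0.0153%, 0.0161%, 0.0345% and 0.0279% of the libraries. They were higher in both treated samples, as the mitochondrial genes were. Gm10925 held 736, 706, 1760 and 1587 counts beside 749, 734, 2346 and 3344 for mt-Atp6, so the copy took 49.6%, 49.0%, 42.9% and 32.2% of the counts of the pair. Gm28437 took 38.3%, 40.7%, 38.6% and 39.2% of the pair with mt-Co3. The share of the copy was lower in both treated samples for mt-Atp6 and overlapped for mt-Co3.

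Gm10222 held 52, 65, 146 and 107 counts, more than the 45, 56, 86 and 114 of mt-Nd4l in all samples but ADC/cmLumiOpto 2. For mt-Co1 and mt-Nd4, whose copies are partial, the copy took 0.391% to 0.523% and 1.29% to 1.55% of the pair. The log2 fold change of the 7 copies ran from 0.82 for Gm10222 to 1.20 for Gm28438. Because the sequences are identical or nearly so, counts of the mitochondrial gene and its copy cannot be told apart with certainty, and both are reported as uncertain and without a test. With the counts of the copies added to the members, the median log2 fold change of the members in the fit was 0.74.

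**Figure D4:**
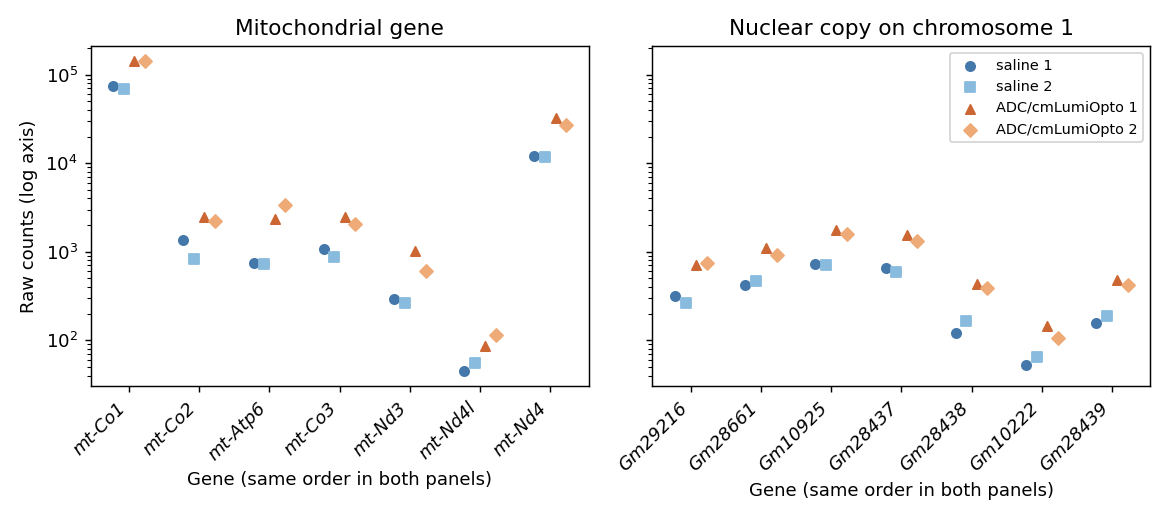
Raw counts (log axis) of 7 mitochondrial mRNA genes (left) and of their nuclear copies on chromosome 1 (right, same order) in each sample. The treated samples lie above the saline samples for each gene and each copy. The copies hold 52 to 1760 counts, while the mitochondrial genes range from 45 counts for mt-Nd4l to 141245 for mt-Co1.

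Nuclear genes for the other subunits of the same complexes, none of them a member, were mostly higher as well, although none passed the test of the main fit. The nuclear lists were also chosen with earlier results of these data known. Their medians, here and below, are given without removing the trend on gene length. Of 81 respiratory chain genes in the fit, 75 had a log2 fold change above 0 against a background of 52% of all genes, with a median of 0.46, where all genes had 0.028. Of the 81, 57 were higher in both treated samples (28.1% of all genes) and 3 lower in both (28.8%). The 82 listed genes summed to 8958 and 8973 CPM with saline. The sum was 12575 CPM in ADC/cmLumiOpto 1 and only 9797 CPM in ADC/cmLumiOpto 2. For complex V the sums overlapped, at 3468 and 3489 CPM with saline and 4372 and 3467 CPM with ADC/cmLumiOpto. By edgeR's quasi-likelihood test 0 of the 81 had an adjusted p under 0.05, and 35 had an unadjusted p under 0.05, where 23.2% of all genes did. DESeq2 called 16 of them higher (3.78% of all genes) and the edgeR exact test 10 (3.96% of all genes), with none called lower by either. For complex I the count was 35 of 37 genes above 0 (median 0.56), for complex III 8 of 9 (0.57), for complex IV 15 of 15 (0.50) and for complex V 14 of 16 (0.30). Complex II, which has no mtDNA-encoded subunit, had 3 of 4 above 0 and a median of 0.064.

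The accessory complex I subunit Ndufb4 (chromosome 16) held 320, 341, 881 and 813 counts, or 21.5 ± 2.11 CPM with saline and 44.8 ± 7.27 CPM with ADC/cmLumiOpto, a log2 fold change of 1.06 (adjusted p = 0.116 by edgeR's quasi-likelihood test, 0.00227 by DESeq2). Uqcrh (chromosome 4), the hinge subunit of complex III, held 1645, 1478, 4410 and 3483 counts, a log2 fold change of 1.05 (adjusted p = 0.116 by edgeR, 0.00123 by DESeq2). Both were higher in both treated samples. Cox4i2 (chromosome 2), an oxygen-responsive isoform of a complex IV subunit that is abundant in lung, held 63, 37, 139 and 239 counts, a log2 fold change of 1.60 (adjusted p = 0.123 by edgeR, 0.0122 by DESeq2). Its isoform Cox4i1 (chromosome 8) held 7440, 7004, 13697 and 12855 counts, a log2 fold change of 0.58 (adjusted p = 0.141 by edgeR, 0.0373 by DESeq2). Atp5e (chromosome 2), the epsilon subunit of ATP synthase, held 1284, 1324, 3680 and 2827 counts, a log2 fold change of 1.03 (adjusted p = 0.116 by edgeR, 0.00294 by DESeq2). In complex II, Sdhd (chromosome 9) held 1906, 1696, 3151 and 2840 counts and was higher in both treated samples in CPM. Its log2 fold change was 0.44 ± 0.18 (adjusted p = 0.216 by edgeR, 0.181 by DESeq2). Sdhb (chromosome 4) held 1433, 1293, 1886 and 1717 counts, with a log2 fold change of 0.11 ± 0.18. These genes were named for having the smallest p of their lists, so their p-values do not speak for the lists, of which DESeq2 called 16 of 81 genes. Atp5l (chromosome 9), the other complex V gene picked in this way, was at 0.60 on the log2 scale (adjusted p = 0.136 by edgeR, 0.05003 by DESeq2) and was not called.

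Set side by side, the mtDNA-encoded subunits ran from 0.48 to 1.29 on the log2 scale for complex I (7 genes) and the nuclear ones from -0.34 to 1.44 (37 genes). For complex III mt-Cytb was at 0.74 and the 9 nuclear genes ran from -0.11 to 1.05. For complex IV the 3 mtDNA-encoded genes ran from 0.69 to 0.92 and the 15 nuclear genes from 0.15 to 1.60. For complex V mt-Atp6, at 1.62, lay above all 16 nuclear genes, which ran from -0.11 to 1.03. Within complexes I, III and IV the ranges overlapped.

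**Figure D5:**
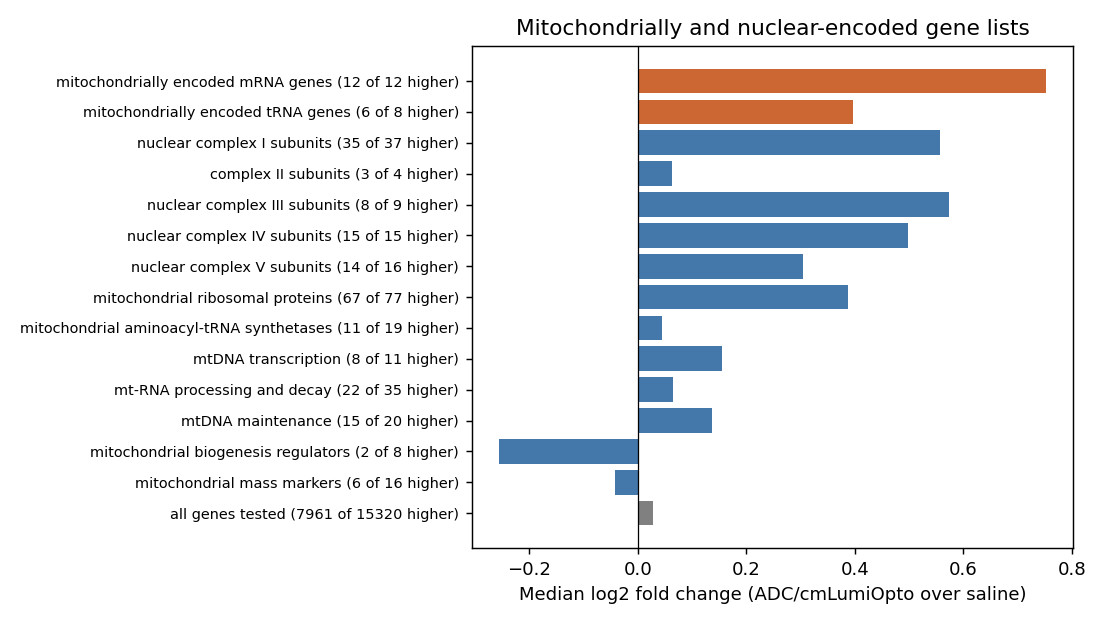
Median log2 fold change (ADC/cmLumiOpto over saline, x axis) of each gene list, with the number of genes above 0 among those in the fit. Orange bars are mtDNA-encoded mRNA and tRNA genes, blue bars are nuclear lists and the gray bar is all genes in the fit. Nuclear subunits of complexes I, III and IV lie at 0.50 to 0.57, all genes at 0.028, and the regulators of biogenesis at -0.26.

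The mitochondrial ribosome joins both rRNAs to proteins encoded in the nucleus. Of its 77 protein genes in the fit, 67 had a log2 fold change above 0, with a median of 0.39. None had an adjusted p under 0.05 by edgeR's quasi-likelihood test and 21 had an unadjusted p under 0.05, a share near the 23.2% of all genes. DESeq2 called 5 higher, where it called 3.78% of all genes higher. Mrpl33 (chromosome 5) held 515, 536, 954 and 1327 counts, a log2 fold change of 0.80 (adjusted p = 0.116 by edgeR, 0.0130 by DESeq2). Mrpl41 (chromosome 2) held 410, 362, 1055 and 785 counts, a log2 fold change of 0.97 (adjusted p = 0.123 by edgeR, 0.0173 by DESeq2). Both large-subunit proteins were higher in both treated samples.

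Genes that make, process and charge mitochondrial RNA lay closer to the middle of all genes. Of 11 mtDNA transcription genes, 8 were above 0 (median 0.15). Among them Mrpl12, a ribosomal protein that also binds the mitochondrial RNA polymerase, held 1232, 1110, 2463 and 1967 counts, and its log2 fold change was 0.63 (adjusted p = 0.164 by edgeR). Mitochondrial RNA processing and decay genes had 22 of 35 above 0 (median 0.064), including the oligoribonuclease gene Rexo2 at 0.65 ± 0.19. Aminoacyl-tRNA synthetases, which load the tRNAs, had 11 of 19 above 0 (median 0.044). mtDNA maintenance genes had 15 of 20 above 0 (median 0.14), with the polymerase gene Polg at 0.51 ± 0.20 and the ligase gene Lig3 at -0.72 ± 0.24. None of the genes in these 4 lists was called by edgeR's quasi-likelihood test, DESeq2 or the exact test. An unadjusted p under 0.05 was found for 7 of them, a smaller share than the 23.2% of all genes.

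Regulators of mitochondrial biogenesis had 2 of 8 genes above 0 and a median of -0.26. The nuclear receptor gene Esrra was at 0.43 ± 0.16 and Gabpa, which encodes a subunit of nuclear respiratory factor GABP, at -0.45 ± 0.17, and none of the 8 was called by any of the 3 tests, with 2 at an unadjusted p under 0.05. Genes taken as markers of mitochondrial mass had 6 of 16 above 0 and a median of -0.042. Citrate synthase, Cs, held 3225, 3045, 2700 and 3436 counts (log2 fold change -0.34 ± 0.16), and cytochrome c, Cycs, held 925, 769, 1656 and 1233 counts (0.49 ± 0.24). None of the 16 was called by any of these tests and 0 had an unadjusted p under 0.05 by edgeR's quasi-likelihood test. mtDNA itself was not measured, so RNA per mtDNA copy is not known.

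The makeup of the tissue moved with the groups, and its part in the mitochondrial values was not tested. Summed levels of 8 alveolar type 2 markers were 459 to 1713 CPM with saline and 4994 to 5782 CPM with ADC/cmLumiOpto, with 7 of 8 genes higher in both treated samples. For 6 alveolar type 1 markers they were 117 to 286 and 733 to 740 CPM (5 of 6 higher), for 5 club cell markers 81.4 to 1148 and 2969 to 6217 CPM (5 of 5), and for 6 ciliated cell markers 5.53 to 11.6 and 39.0 to 59.6 CPM (6 of 6). Of all genes in the fit, 28.1% were higher in both treated samples. In the same order of lists, DESeq2 called 2, 5, 3 and 3 genes higher (3.78% of all genes). The exact test called 7, 5, 3 and 3 higher (3.96% of all genes). edgeR's quasi-likelihood test called 0. No marker of these 4 lists was at 0 in any sample, apart from 1 ciliated cell marker in saline 2. Lung epithelial markers as sums were thus higher in both treated samples.

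Fibroblast markers went the other way, at 3475 to 5085 CPM with saline and 1423 to 1765 CPM with ADC/cmLumiOpto, with 5 of 7 genes lower in both treated samples and 1 higher in both. DESeq2 and the edgeR exact test each called 4 of the 7 lower and 1 higher, and edgeR's quasi-likelihood test called 0, with 7 at an unadjusted p under 0.05. Of all genes in the fit, 28.8% were lower in both treated samples and 23.2% had an unadjusted p under 0.05. DESeq2 called 5.05% of all genes lower and 3.78% higher, and the exact test 3.68% lower and 3.96% higher. Proliferation markers were at 1326 to 1351 and 827 to 930 CPM (6 of 8 lower in both). DESeq2 called 3 of the 8 lower, the exact test 2 and edgeR's quasi-likelihood test 0. The 7 epithelial markers of 4T1 cells were at 2844 to 3282 and 2667 to 2736 CPM, with 4 of 7 lower in both. This sum was thus lower in both treated samples by less than that of the fibroblast markers. Lung epithelium also expresses Krt8, the most abundant of the 7, so the sum does not describe tumor cells alone. DESeq2 called 1 of the 7 lower, the ADC target Cd276. Its log2 fold change was -0.63 (adjusted p = 0.123 by edgeR's quasi-likelihood test, 0.0294 by DESeq2).

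Neutrophil markers were at 1157 and 534 CPM with saline and at 1159 and 8047 CPM with ADC/cmLumiOpto, so ADC/cmLumiOpto 2 stood apart from the other samples. S100a9, the most abundant of these markers, held 8074, 3121, 9912 and 78223 counts. In CPM, ADC/cmLumiOpto 2 was highest for mt-Rnr1, mt-Rnr2, mt-Atp6 and mt-Nd4l, whereas ADC/cmLumiOpto 1 was highest for every other mitochondrial mRNA gene. Erythroid markers were at 352 to 1110 and 1871 to 2075 CPM. Macrophage markers were at 1315 to 1490 and 1319 to 1759 CPM, endothelial markers at 420 to 531 and 557 to 832 CPM, T and NK cell markers at 18.5 to 50.7 and 48.5 to 116 CPM, and B cell markers at 2.09 to 4.94 and 6.88 to 7.08 CPM. Smooth muscle markers were at 177 to 220 and 95.9 to 146 CPM. Markers of cardiac muscle, a tissue rich in mitochondrial transcripts that can be carried along with lung, were at 102 and 91.9 CPM with saline and at 84.2 and 125 CPM with ADC/cmLumiOpto, nearly all from Tnnt2 at 1539, 1319, 1350 and 2413 counts, while the contractile gene Myh6 held 24, 6, 25 and 58 counts. The cardiac sum overlapped between the groups.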

How the data were processed

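The authors aligned reads with HISAT2 and deposited raw counts per gene without normalization. The counting program is not given in the sources used here. The paper names GRCm38 and the processing notes mm39. Positions of 37 members and of 1524 of 52125 shared genes equalled GENCODE vM21. No column held a sample outside the 2 groups (0 such columns). Genes were filtered by filterByExpr (minimum count 10, total 15), scaled by TMM and compared by edgeR 4.0.16 quasi-likelihood tests (limma 3.58.1, R 4.3.3), with Benjamini-Hochberg adjustment over 15320 genes and a threshold of 0.05. The prior count was 0.125 and each standard error is that of the log2 fold change. DESeq2 1.42.0, the exact test, other scalings and filters, a trend on gene length (lowess span 0.3), a replicate block and each sample left out were alternatives. Copies were found with blastn 2.17.0. The fit was also run on simulated counts in which every gene had the same variation between samples beyond counting error. That run does not bear on how many genes were called in these samples.

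Named genes are the mRNA and rRNA genes, tRNA genes with 10 counts or more, the 2 genes with the smallest p per list (some of them), the most abundant marker of a cell type, and copies over 100 counts. Members and lists were chosen with earlier results of these data known. The study's methods call the samples biological samples from treated and control mice, and the labels do not tie each sample to a mouse, so p-values measure the spread between these samples.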

Additional observations from a re-analysis of the deposited data

How the results depend on the processing

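With 2 samples per group the quasi-likelihood fit called 0 genes, and this count depended on the test and the samples, from causes that were not tested. DESeq2 called 1353 genes in the whole table and 21 in the nuclear mitochondrial lists, the exact test 1170 and 14, and a fit with no filter beyond 1 count in total 2259 and 31. With a replicate block the counts were 607 and 5. Whether same-numbered samples belong together is not known. Their deviations correlated at 0.0985 over the genes in the fit, which cannot decide this for single genes. Leaving out 1 sample gave 0 to 218 genes in the whole table, with 218 without saline replicate 1, and 0 in the lists.

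The median log2 fold change of the members in the fit, 0.73, was 0.41 with the trend on gene length removed and 0.60 to 0.88 with 1 sample left out. The difference in the mitochondrial share of counts was 0.69 to 0.94 percentage points and that in the rRNA share of mitochondrial counts 1.25 to 3.49 points with 1 sample left out. Of 314 log2 fold changes of single members under the alternatives, 10 changed sign, in 4 tRNA genes. Fitted values of tRNA genes are limited by their low counts, and mt-Atp8 had too few counts to enter the fit.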
